A study of Saccharomyces cerevisiae with 8 samples.

Results

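The 5 genes described here, GPX2, GRX2, GSH1, GTT2 and ECM4, belong to glutathione metabolism in budding yeast (Saccharomyces cerevisiae). They were taken by name, as the features whose array annotation gives 1 of these symbols alone, and are 5 of the 3127 genes so named on the array. The 5 were chosen with earlier results of these data known. Each was measured by 1 feature. Cells lacking the transcription factor gene YAP1 (yap1d) were compared with wild type (WT), in the backgrounds BY4742 and BY4741. All cultures grew in YPD, a rich medium, until the optical density reached 0.5. They then spent 2 h in 200 mM hydroxyurea, a drug that blocks ribonucleotide reductase, so yap1d and WT both carried the treatment and no untreated culture was analysed here. RNA of yap1d and WT shared a slide, with the channels exchanged between the 2 slides of a background (21 and 22 for BY4742, 19 and 20 for BY4741), and each slide gave 2 columns, a fort and a faible one by their titles. These were taken as 2 scans of 1 slide, so that 8 columns were read.

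Glutathione is a tripeptide thiol that keeps the cell interior reduced. Glutathione peroxidases and glutaredoxins use thiols to reduce peroxides and disulfides, transferases couple glutathione to reactive compounds, and GSH1 and GSH2 make the tripeptide from glutamate, cysteine and glycine. Yap1 is the main yeast activator of genes for peroxide defence, and peroxide activates it through the thiol peroxidase encoded by HYR1. Genes of glutathione metabolism, GSH1 among them, are known targets of Yap1 under oxidative stress.

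All values are log ratios of yap1d over WT, with the median of each column subtracted. Base 2 was assumed, since the labels do not name the base. The labels give the channel of each strain but not the channel on top of the ratio. The direction was therefore set so that TRX2 and TRR1, thioredoxin system genes that Yap1 activates and that are not among the 5, were lower in yap1d, which makes every direction below likely rather than certain. With the opposite direction each fall would be a rise of the same size, and the lowest gene the highest. TRX2 averaged -1.57 ± 0.393 and TRR1 -0.998 ± 0.00265 (SD over the 2 backgrounds). No feature carried the symbol YAP1 alone, so the deletion was not checked, and a ratio of 2 strains of the same background shows nothing of the background's own markers. RNA came from whole cultures, so fewer cells expressing a gene and less RNA per cell cannot be told apart. Whether a background had 1 culture of each strain or 1 for each slide is not in the labels, so spread between slides may be technical. The number of arrays limits the precision, and a channel effect was called for 62.8% of genes (limma, 4 slides).

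GPX2 stood far below the other 4 genes. It also had the lowest mean of all named genes (-2.29), though YNL134C was close at -2.14, with an SE of 0.108 on each mean. GRX2, ECM4 and GTT2 were lower in yap1d by much less, and GSH1 did not pass the test. With limma over the 2 backgrounds and an adjusted p under 0.05, 4 of the 5 genes were called, all lower. The background was 1.57% of the 3127 genes called lower and 0.544% called higher. Because the 5 were chosen with earlier results of these data known, their share called is no test of the pathway. When the 4 slides were fitted with a term for the channel, GPX2, GRX2 and ECM4 passed and GTT2 did not, against a background of 1.18% called lower and 0.352% called higher.

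**Figure D1:**
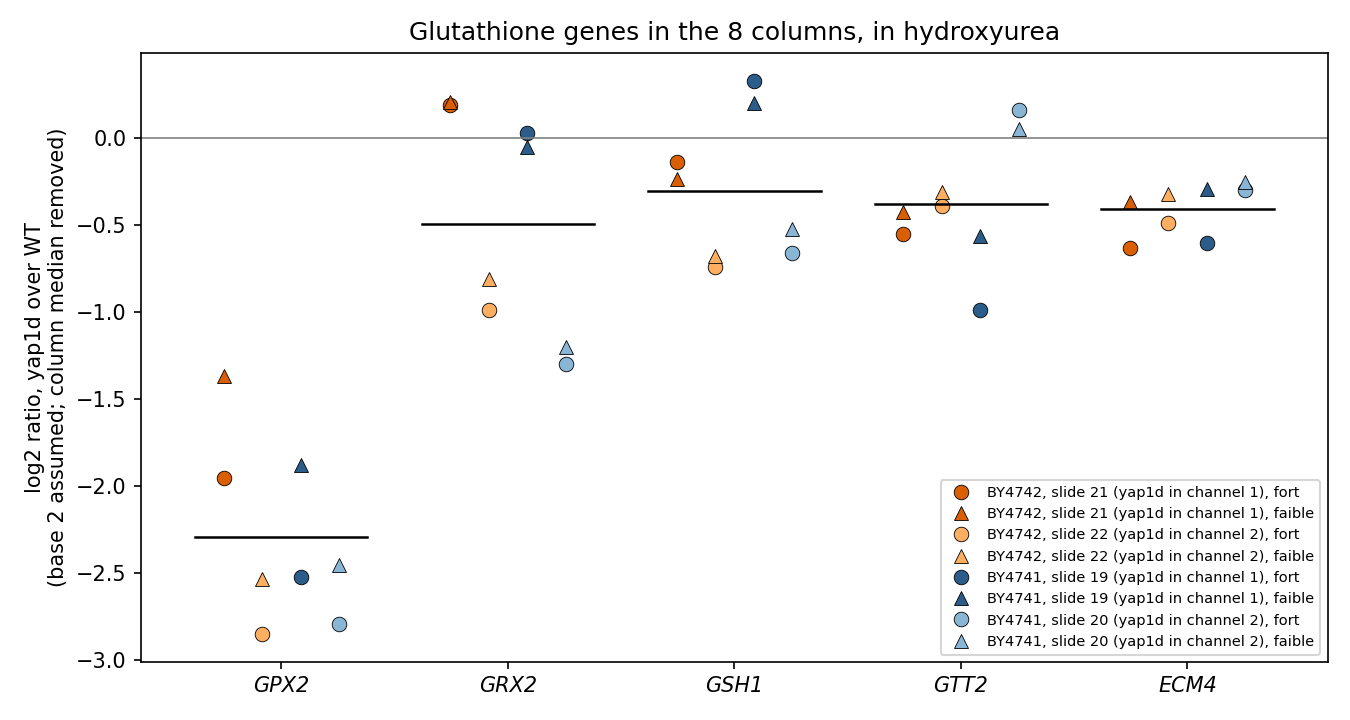
Log2 ratio of yap1d over WT (vertical axis, column median removed, base 2 assumed) for the 5 genes (horizontal axis) in the 8 columns, coloured by slide, with circles for fort, triangles for faible and a bar at the mean. GPX2 lies between -2.85 and -1.37 in all 8 columns, ECM4 is the other gene below 0 in all 8, and GRX2 is split by the channel that held yap1d.

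GPX2 encodes a glutathione peroxidase that reduces lipid and other hydroperoxides. In the fort columns it read -1.95 on slide 21 and -2.85 on slide 22 in BY4742, and -2.52 on slide 19 and -2.79 on slide 20 in BY4741. In the faible columns it read -1.37 and -2.53 in BY4742 (slides 21 and 22), and -1.88 and -2.45 in BY4741 (slides 19 and 20). All 8 columns were far below 0, the highest being the faible column of slide 21, and the fort value was the lower of the 2 scans on every slide. Over all features the fort columns were also wider, with an SD of 0.485 to 0.638 against 0.363 to 0.482 in the faible columns.

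The mean of GPX2 was -2.29 ± 0.167 (SD, n = 2 backgrounds), with -2.17 in BY4742 and -2.41 in BY4741. At base 2 and in the likely direction this is 4.90-fold lower, or 20.4% of the WT level, and if the deposited values were natural logarithms it would be 9.89-fold. It was, in that direction, the lowest of 3127 genes on the mean and in each background taken alone. Among all 6695 units of the array (the genes plus the features that have no single name), GPX2 was the lowest in 4 of the 8 columns (both of slide 19 and the fort columns of slides 20 and 22) and ranked 2 or 3 in the others. The limma fit gave an adjusted p of 1.50e-92 over the 2 backgrounds and 3.91e-07 over the 4 slides, where the 95% interval ran from -2.50 to -2.08. The first of these rests on 1 spread assumed for all genes (SE 0.108).

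The ratio before turning gives the plainest view of GPX2. As deposited, it was -1.51 and -1.91 on slide 21 (faible and fort) and 2.29 and 2.69 on slide 22 in BY4742, and in BY4741 it was -2.16 and -2.55 on slide 19 and 2.20 and 2.58 on slide 20. It was negative where yap1d was in channel 1 and positive where yap1d was in channel 2, in all 8 columns. The value of 2.69 was the highest of all features on its column, 2.58 was the highest on its column, and -2.16 and -2.55 were the lowest on theirs. GPX2 had a channel effect too, 0.363 on the same scale (limma, adjusted p = 0.00603), which was small beside its difference between strains.

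GPX1 encodes another glutathione peroxidase. It read 0.39 on slide 21 and -0.28 on slide 22 in BY4742, and 0.23 on slide 19 and -0.44 on slide 20 in BY4741, above 0 with yap1d in channel 1 and below 0 with yap1d in channel 2. Its mean was -0.03 ± 0.116, with a 95% interval from -0.20 to 0.15 over the 4 slides, and it did not pass (limma, adjusted p = 0.994). GPX2 lay below GPX1 on 4 of 4 slides, by 2.05 to 2.43. The third peroxidase gene, HYR1, was not analysed here.

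**Figure D2:**
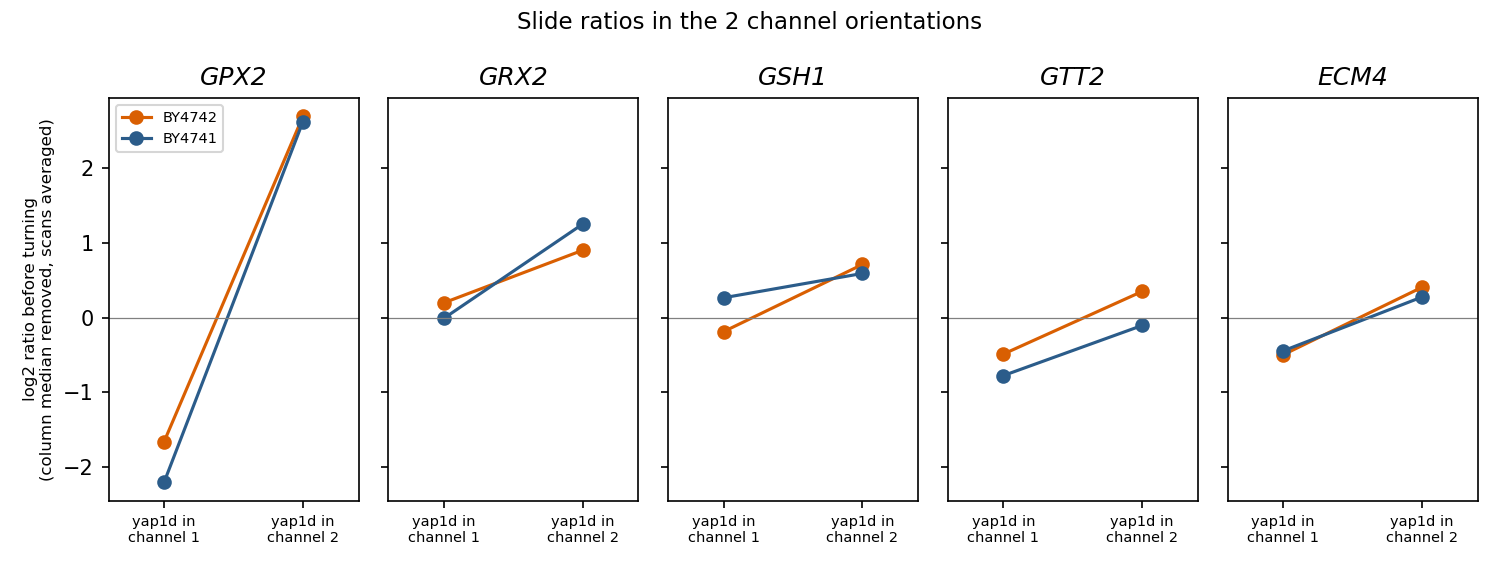
Log2 ratio of each slide before turning to yap1d over WT (vertical axis, column median removed, scans averaged) with yap1d in channel 1 (left of each panel) or channel 2 (right), for BY4742 in orange and BY4741 in blue. A difference between strains tilts a line and a channel effect shifts it: GPX2 spans zero widely, ECM4 spans it narrowly and nearly evenly, and GRX2 is shifted upward by 0.584.

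GRX2 encodes a glutaredoxin that uses glutathione to reduce disulfides. With yap1d in channel 2 it read -0.99 (fort) and -0.81 (faible) on slide 22 in BY4742, and -1.30 and -1.20 on slide 20 in BY4741. With yap1d in channel 1 it read 0.19 and 0.21 on slide 21 in BY4742, and 0.03 and -0.05 on slide 19 in BY4741. The low values thus all came from 1 orientation, and 5 of the 8 columns were below 0.

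The mean of GRX2 was -0.49 ± 0.197, with -0.35 in BY4742 and -0.63 in BY4741, which is 1.41-fold lower. It fell by this measure with an adjusted p of 0.000672 over the 2 backgrounds and 0.0219 over the 4 slides (limma). Its channel effect of 0.584 (adjusted p = 0.000145) was larger than its difference between strains, and the mean holds only as far as the channel effect was equal on the 2 slides of a background. On slide 19 the fort column is deposited as exactly 0 for GRX2. The faible column of that slide reads -0.33, and once medians were subtracted the 2 scans were 0.08 apart (0.03 and -0.05), and the mean with that value left out was -0.50. GRX2 lost its call when columns were scaled to the same spread (adjusted p = 0.273) or quantile normalized (0.293). In fits of 3 slides with a channel term it did not pass without slide 19 (0.644) or slide 21 (0.438), where the model and the variance prior changed along with the slides.

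The means of the 3 other glutaredoxins measured stood near 0. GRX6 and GRX7, glutaredoxins of the secretory pathway, averaged 0.0025 ± 0.0407 and 0.01 ± 0.294, and GRX8, a cytosolic glutaredoxin, averaged 0.05 ± 0.0309. None of the 3 passed (adjusted p from 0.994 to 0.996, limma). Like GRX2, GRX6 and GRX8 were split by the channel that held yap1d. Their channel effects were 0.45 and -0.82, and that of GRX7 was 0.13. GRX7 was at 0.22 in BY4742 and -0.20 in BY4741, a spread wider than that of GRX2. The nearest relative of GRX2, GRX1, was not analysed here, and whether its RNA also binds the GRX2 feature was not tested.

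ECM4 encodes an omega class glutathione transferase. In the fort columns it read -0.63 and -0.49 in BY4742 (slides 21 and 22), and -0.60 and -0.30 in BY4741 (slides 19 and 20). In the faible columns it read -0.37 and -0.32 in BY4742, and -0.29 and -0.25 in BY4741, in the same slide order. Once medians were subtracted every column was below 0, a pattern found in 1.54% of the 3127 genes. On slide 20 this rests on the centring. ECM4 is deposited there as exactly 0 (faible) and 0.09 (fort), and the column medians were -0.25 and -0.21. With the value of exactly 0 left out the mean was -0.41. The channel effect was small (-0.07, limma, adjusted p = 0.470).

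The mean of ECM4 was -0.41 ± 0.0645, with -0.45 in BY4742 and -0.36 in BY4741, or 1.32-fold lower. It fell in limma over the 2 backgrounds (adjusted p = 0.0144) and over the 4 slides (0.0319). The size depended on the scan, at -0.51 in the fort columns, which were wider over all features, and -0.31 in the faible columns. The call was lost with the faible columns alone (adjusted p = 0.0812), with values as deposited (0.0669), with scaled columns (0.218) or quantile normalization (0.234). In the same fits of 3 slides it did not pass without slide 19 (0.530) or 21 (0.480), with means of -0.42 and -0.39.

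GTT2 encodes a glutathione S-transferase. In the fort columns it read -0.55 and -0.39 in BY4742 (slides 21 and 22), and -0.99 and 0.16 in BY4741 (slides 19 and 20). In the faible columns it read -0.43 and -0.31 in BY4742, and -0.56 and 0.05 in BY4741. The 2 BY4741 slides lay on opposite sides of 0, and both BY4742 slides were below it.

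The mean of GTT2 was -0.38 ± 0.0592, with -0.42 in BY4742 and -0.34 in BY4741, or 1.30-fold lower, and its channel effect was -0.25 (adjusted p = 0.0344). It fell in limma over the 2 backgrounds (adjusted p = 0.0326), a call near the smallest size that passed in any gene (0.37), but not over the 4 slides (adjusted p = 0.131). The call was also lost with the faible columns alone (0.0722), with values as deposited (0.123), with scaled columns (0.219) or quantile normalization (0.234). In the fits of 3 slides it did not pass without slide 19 (0.767), 21 (0.575) or 22 (0.355).

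The other transferases measured were GTO1 and GTO3, which like ECM4 are of the omega class, and URE2, a regulator of nitrogen use with a transferase fold. GTO1 averaged -0.19 ± 0.0239, GTO3 0.05 ± 0.135 and URE2 -0.06 ± 0.204, and none of the 3 passed (adjusted p from 0.790 to 0.994, limma). GTT1 and GTT3 were not analysed here.

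GSH1 encodes gamma-glutamylcysteine synthetase, which catalyses the first and rate-limiting step of glutathione synthesis. In the fort columns it read -0.14 and -0.74 in BY4742 (slides 21 and 22), and 0.33 and -0.66 in BY4741 (slides 19 and 20). In the faible columns it read -0.24 and -0.68 in BY4742, and 0.20 and -0.52 in BY4741. Both columns of slide 19 were above 0 and the other 6 below, with the lowest values where yap1d was in channel 2.

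The mean of GSH1 was -0.31 ± 0.202, with -0.45 in BY4742 and -0.16 in BY4741, and its channel effect was 0.34 (adjusted p = 0.00602). It did not pass over the 2 backgrounds (adjusted p = 0.161) or over the 4 slides (0.228), where its 95% interval, not adjusted for the number of genes, ran from -0.51 to -0.11. It did not pass under any of 15 alternative settings, with a limma adjusted p of 0.0765 to 0.999. Its mean was below 0 in all 15, at -0.42 (without slide 19) to -0.19 (without slide 21), though some of these settings cannot change the mean. GSH2, the glutathione synthetase of the following step, averaged -0.19 ± 0.285 and also did not pass (adjusted p = 0.780). GSH2 was at -0.39 in BY4742 and 0.02 in BY4741, so for both synthesis genes the lower value was in BY4742, while the test of that difference did not pass (adjusted p = 0.475 for GSH1 and 0.333 for GSH2).

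The order of the means from lowest was GPX2, GRX2, ECM4, GTT2 and GSH1. GPX2 lay below each of the other 4 on 4 of 4 slides, by at least 1.16, and its 95% interval ended at -2.08, below the lowest end of theirs (-0.68). The neighbours in the rest of the order lay closer together than the SE of 0.108 of each mean. GRX2 minus ECM4 was -0.09 ± 0.262, with 0.10 in BY4742 and -0.27 in BY4741, and GRX2 minus GSH1, the 2 ends of this order without GPX2, was -0.19 ± 0.40. GTT2 minus ECM4 was 0.03 ± 0.00530 and GSH1 minus GTT2 was 0.07 ± 0.143. Among the 3127 genes GRX2 ranked 28 from the lowest, ECM4 39, GTT2 42 and GSH1 60.

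**Figure D3:**
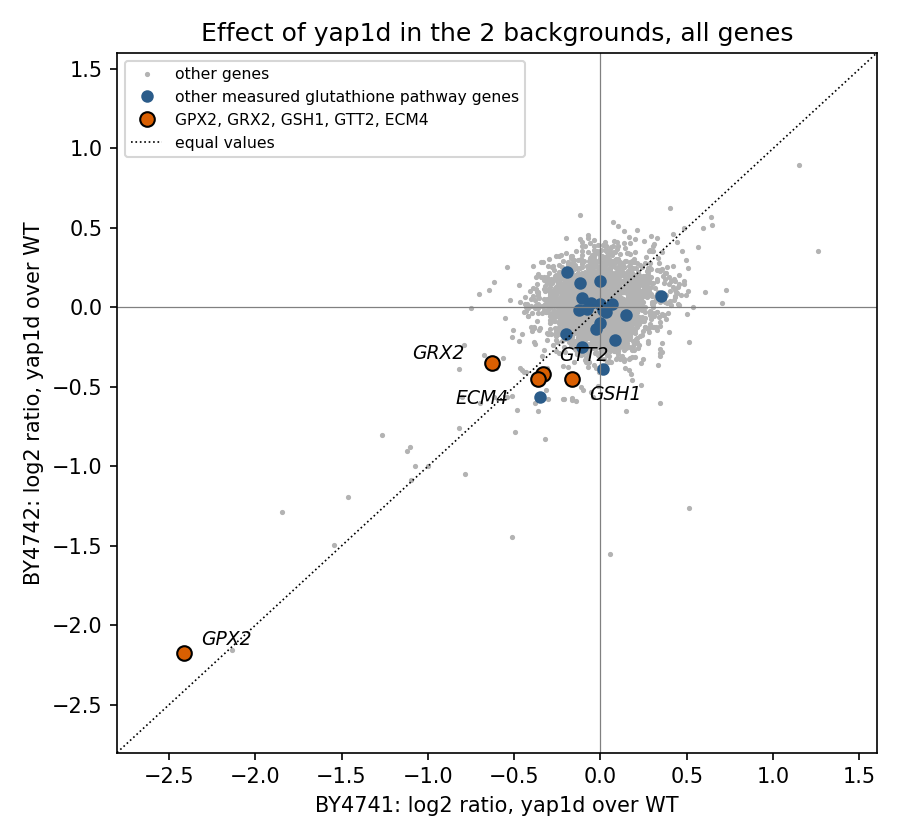
Effect of yap1d in BY4742 (vertical) against BY4741 (horizontal), as mean log2 ratio over the 2 slides of a background, for 3127 genes. GPX2 is at the lower left end, and GRX2, GTT2 and ECM4 (orange) lie at the lower edge of the main cloud. GSH1 (orange) lies at that edge in BY4742 only (rank 45, against 493 in BY4741). Most remaining glutathione pathway genes (blue) lie inside the cloud, with CYS4 and, in BY4742, GSH2 at that edge too.

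Whether the effect differed between backgrounds was tested over the 4 slides, in a fit that also held the channel. That fit nearly used up the 4 slides, so its SE rested mostly on the variance prior (7.48 degrees of freedom). Its SE and p-values measure spread between slides, which may be technical, and not spread between cultures. The difference, BY4742 minus BY4741, was 0.24 ± 0.167 for GPX2, 0.28 ± 0.132 for GRX2, -0.29 ± 0.142 for GSH1, -0.08 ± 0.182 for GTT2 and -0.09 ± 0.131 for ECM4 (SE). None of the 5 passed (limma, adjusted p from 0.463 to 0.863) and none had an unadjusted p under 0.05. No gene of 3127 passed this test, while 395 (12.6%) had an unadjusted p under 0.05. Within the array's ranks, GRX2 stood at 74 in BY4742 and 22 in BY4741, and GSH1 at 45 in BY4742 and 493 in BY4741.

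The other genes of glutathione metabolism mostly did not pass. Of 35 listed besides the 5, 20 were measured: 1 was called lower and none higher, against 1.57% lower and 0.544% higher over all genes, and their median was -0.02, against -0.01 over all 3127 genes. The 5 genes themselves had a median of -0.41, but they were chosen with earlier results of these data known, so this contrast tests nothing. The gene called was CYS4, which encodes cystathionine beta-synthase and supplies cysteine from homocysteine, at -0.46 ± 0.151 (limma, adjusted p = 0.00239 over the 2 backgrounds and 0.0230 over the 4 slides). CYS4 was at -0.56 in BY4742 and -0.35 in BY4741. Like GRX2 it read low with yap1d in channel 2 (-1.29 on slide 22 and -1.08 on slide 20) and above 0 in the other orientation (0.16 on slide 21 and 0.38 on slide 19), with a channel effect of 0.723.

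The 2 other measured genes listed with cysteine supply, STR2 and STR3, act on the path from cysteine to homocysteine. They averaged -0.000625 ± 0.0221 and 0.21 ± 0.199. Among 7 measured genes of glutathione breakdown and transport, none passed and means ran from -0.18 for OPT1, a glutathione importer, to 0.08 for GEX2, a glutathione exporter. DUG1, DUG2 and DUG3, whose products degrade glutathione, averaged -0.05 ± 0.0716, -0.08 ± 0.0769 and -0.05 ± 0.0486. GLO4, a mitochondrial glyoxalase, and SFA1, which oxidises the adduct of formaldehyde and glutathione, averaged -0.07 ± 0.0769 and 0.02 ± 0.190. Glutathione reductase (GLR1), CYS3 and the vacuolar conjugate pump gene YCF1 were among the 15 listed genes not analysed here.

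**Figure D4:**
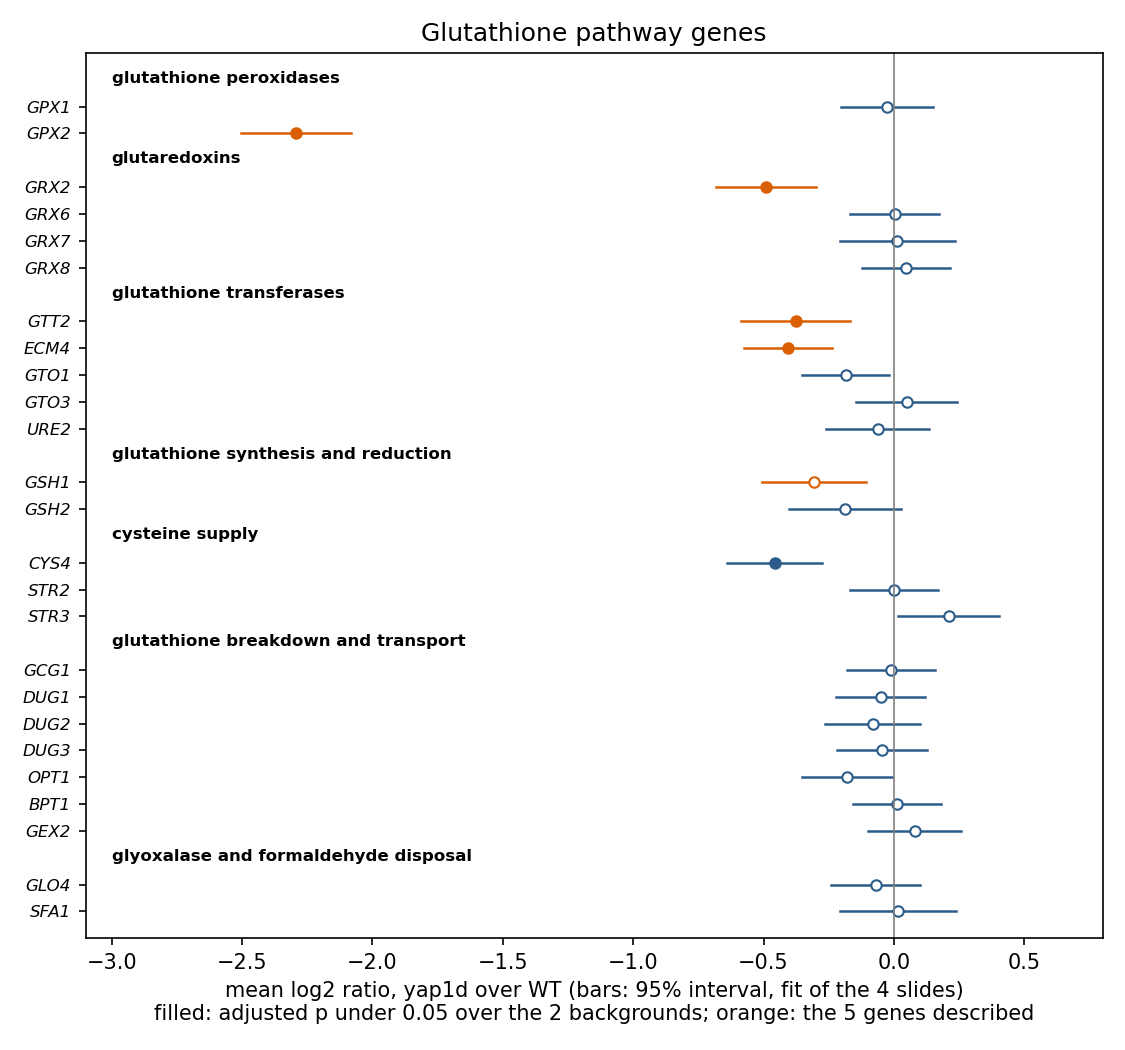
Mean log2 ratio of yap1d over WT (horizontal axis) for the 25 measured genes of glutathione metabolism, grouped by role, with 95% intervals from the limma fit of the 4 slides. Filled points passed an adjusted p of 0.05 over the 2 backgrounds: GPX2, GRX2, GTT2, ECM4 and CYS4, all lower in yap1d.

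The genes most like each of the 5 were found by the root mean square difference over the 8 columns, with the channel effect left in. The nearest to GPX2 were YNL134C at 0.320, TRX2 at 0.801 and SOD1 at 0.865, where the median distance of all genes from GPX2 was 2.35. SOD1 encodes the copper-zinc superoxide dismutase. YNL134C fell by 2.14 while SOD1 fell by 1.52. The nearest to GRX2 was HSP12, a small heat shock protein gene, at 0.0782, followed by CDC26, a subunit gene of the anaphase-promoting complex, at 0.166 and ELO1, a fatty acid elongase gene, at 0.176 (median of all genes 0.757). HSP12 fell by 0.49, CDC26 fell by 0.51 and ELO1 fell by 0.59 on the log2 scale, each with an adjusted p under that of ECM4.

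GSH1 was nearest to the autophagy gene ATG2, ICS3 and SOG2 (0.132 to 0.156, with means from -0.21 to -0.20), and GTT2 to the iron regulator gene AFT2, PNS1 and PET20 (0.197 to 0.214, with means from -0.20 to -0.18). ECM4 was nearest to the mitogen-activated kinase gene KSS1, PDR16 and YHR140W (0.204 to 0.217). Of these 9 genes, YHR140W alone passed (-0.44, adjusted p = 0.00419, limma).

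Genes beside the 5 on their chromosomes, in the RefSeq gene order, were read as well. Of 10 neighbours, 9 were measured and none passed. ALG7 and ISW1, on either side of GPX2, averaged -0.13 ± 0.00619 and -0.21 ± 0.0504. MMP1 and HSU1, beside GTT2, averaged 0.006 ± 0.00972 and 0.07 ± 0.00972, and LSB6, beside GSH1, averaged -0.24 ± 0.0539. YKR075C, beside ECM4, was at -0.65 in BY4742 and 0.15 in BY4741.

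The place on the slide was checked for the 5 features, which lay in 5 different print blocks of 144 features. Medians of these blocks ran from -0.05 to 0.003, and GPX2 was the lowest of its block, where the next feature was at -0.46. With the median of each block removed, GPX2 was at -2.24, GRX2 at -0.42, GTT2 at -0.36, ECM4 at -0.34 and GSH1 at -0.30. The same 4 were called, where 56 genes over the whole array were called lower and 17 higher.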

How the data were processed

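The authors deposited 1 log ratio per feature and column, read here as log2, for 6912 features in 8 columns without a missing value. Labelling was indirect and slides were spotted, per the labels, while scanner settings, background correction, normalization and the array's genome build are not given in the sources used here. Names are those of the platform annotation, brought up to date with the RefSeq R64 gene table by identifier (3343 of 3344 features with 1 symbol matched), and features of a gene were averaged, giving 6695 units. Every column belonged to a sample of the series.

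Columns were centred on their medians, scans of a slide averaged, ratios turned by the labelled channel and slides of a background averaged. An intercept was fitted over the 2 backgrounds with lmFit and eBayes (limma 3.58.1, R 4.3.3), two-sided, with Benjamini-Hochberg adjustment over all units. The prior on the variance had infinite degrees of freedom, so 1 common SD (0.153) served every gene, and very small p-values rest on that. Before turning, slides of like orientation correlated across units at 0.850 and 0.862 and of opposite orientation at 0.761 to 0.812. The turned effects of the 2 backgrounds correlated at 0.271 across units, which are not independent replicates. The other fit used the 4 slides with a channel term (2 residual degrees of freedom), and that for backgrounds added an interaction. The genes named were the 5, all measured genes of the listed roles, the direction genes, the 3 nearest genes of each, and the chromosomal neighbours, the last chosen after the values were seen. The genes and lists were chosen with earlier results of these data known. Sequences were not used here. Figures were drawn with matplotlib 3.10.9.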

Additional observations from a re-analysis of the deposited data

How the results depend on the processing

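Of the 5 genes, GPX2 passed in 14 of 15 alternatives (-2.53 to -1.95), and all 5 means stayed below 0 in all 15. The exception was the fit of 4 slides without a channel term, which leaves the channel effect in the residual. In it no gene passed (0 lower, 0 higher, 0 of the 5) in limma, while 26 genes, 2 of the 5 among them, had an unadjusted p under 0.05. The means there (GPX2 -2.29, GRX2 -0.49, GTT2 -0.38, ECM4 -0.41) equal the main ones by construction, since the 2 orientations had equally many slides. This holds for every fit of the 4 slides. It also holds when each feature is tested alone, as each of the 5 has 1 feature. In those settings the unchanged sign is no check. Of the 5, 2 passed with the faible columns alone (GTT2 -0.31 and ECM4 -0.31 did not) and 2 with values as deposited (GTT2 -0.32 and ECM4 -0.35 did not). Only GPX2 passed (1 of 5) with scaled columns (GRX2 -0.43, GTT2 -0.40, ECM4 -0.42) and with quantile normalization (GRX2 -0.45, GTT2 -0.41, ECM4 -0.41). These 2 settings also left 18 genes called, 15 lower and 3 higher, against 66 (49 and 17). The cause of the lost calls was not tested, but there the variance prior had 6.05 and 5.52 degrees of freedom rather than infinite ones. The values as deposited gave 36 lower and 34 higher, and the 4 slides gave 37 lower and 11 higher (35 and 10 with a robust prior), where GTT2 (-0.38) did not pass. Leaving out 1 slide was run as a fit of the other 3 with a channel term, so the model changed too (prior of 3.47 degrees of freedom without slide 19 or 21, infinite without 20 or 22). It gave 3 to 95 genes, 3 to 58 lower and 0 to 43 higher, and 1 to 4 of the 5, with GRX2 at -0.58 to -0.40, GSH1 at -0.42 to -0.19, GTT2 at -0.49 to -0.26 and ECM4 at -0.44 to -0.37. The low end, 3 genes, was without slide 19 and without slide 21. The difference between backgrounds passed in 0 genes, in 73 with the faible columns alone and in 15 with values as deposited, none of them among the 5.

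Setting values of exactly 0 to missing, or testing each feature alone, kept the same 4 calls. The first gave 49 genes lower and 17 higher, and the second 52 named features lower and 19 higher. The labels give no replicate numbers shared between backgrounds. Signal over background was not used here, so dim and saturated spots could not be told apart.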
